A study of Mus musculus with 6 samples.

Results

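The lipocalins described here are 7 mouse genes, Lcn2, Lcn5, Lcn6, Lcn8, Lcn9, Lcn10 and Lcn12, read in epididymis, testis and the stromal vascular fraction (SVF) of adipose tissue. Members were chosen by gene name in the platform annotation. Of the 7, 6 were measured, each by 1 array feature, among 18545 named genes on the array. Lcn6 has no named feature in that annotation and is not analysed here. The array features were 9239 for Lcn2, 11350 for Lcn5, 22965 for Lcn8, 17681 for Lcn9, 16162 for Lcn10 and 25238 for Lcn12. The gene table lists Lcn5 as an older name of Lcn8 too, and both genes were matched here by gene ID.

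Total RNA of mouse epididymis, testis and SVF was compared on 6 arrays with 2 dyes each, Cy5 and Cy3. Every pair of tissues shared 2 arrays with the dyes exchanged, so that 3 dye swaps closed a loop and each tissue was on 4 arrays. The series names 3 RNA samples, 1 for each tissue, and its labels give no strain, age, treatment, genotype or pooling of animals. SVF is what remains of fat tissue once the adipocytes are removed, a mixture of progenitor, vessel and immune cells.

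Lipocalins are small secreted proteins folded into a barrel that holds a greasy or otherwise poorly soluble ligand. The epididymis is the duct in which sperm mature, and its epithelium secretes several lipocalins into the lumen. Lcn5 binds retinoic acid, Lcn2 sequesters the siderophores with which bacteria take up iron, and the ligands of most other duct lipocalins are less well known. Lcn2 is also made by neutrophils, macrophages and stressed epithelia, where NF-kappaB signalling induces it.

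Values are log2 ratios as deposited, with the sign changed on the array whose dyes were exchanged. The first-named tissue is the numerator, a direction taken from the dyes in the labels and likely rather than stated, and the logarithm was read as base 2 by convention. Means are given ± SD over the 2 arrays of a dye swap (n = 2 hybridisations of the same RNAs). This SD leaves out the spread between animals, and no p-value can be given between tissues. The rule for calling a gene higher in one tissue was a ratio of at least 2-fold on both arrays. Spot intensities were not used here, so it is not known in which tissues a gene lay above background. In these bulk RNAs fewer cells of a type and less RNA per cell cannot be told apart.

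The tissue labels were read against marker genes. All 10 measured duct markers and all 7 epithelial markers were higher in epididymis than in SVF, and all 17 were also higher in epididymis than in testis. Between testis and SVF, 3 duct and 2 epithelial markers were higher in testis, and 1 duct and 2 epithelial markers were higher in SVF. The shares of all named genes are given with each comparison below. Of 12 germ cell markers, testis exceeded SVF for 11, epididymis exceeded SVF for 8 (median log2 ratio 1.86), and testis exceeded epididymis for 9. These germ cell genes moved with the lipocalins in epididymis over SVF, and their part in the lipocalin ratios was not tested. The exception in testis was the synaptonemal complex gene Sycp3, at -0.23 ± 1.11 for testis over SVF, named after its value was seen. SVF had 6 of 6 stromal, 7 of 7 macrophage and 6 of 7 adipocyte markers higher than testis, and 5, 7 and 2 of these higher than epididymis. Epididymis exceeded testis for 5 stromal, 3 macrophage and 5 adipocyte markers. Across the named genes, the 2 arrays of a dye swap correlated with Pearson's r of 0.71 for epididymis and SVF, 0.81 for epididymis and testis, and 0.88 for testis and SVF, where genes are not independent replicates.

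Most lipocalin members lie together on chromosome 2. In the mouse gene table of GRCm38.p6, a stretch of 32 genes runs from Ptgds to Lcn9 and holds 13 lipocalin genes, among them Lcn12, Lcn8, Lcn5, Lcn6, Lcn10 and Lcn9. Lcn8 and Lcn5 are direct neighbours, and 16 genes lie between Lcn12 and Lcn8. Lcn2 is on the same chromosome but stands apart, with 224 genes between it and Lcn9. Sequences around the start of 3 genes are shown, from 250 bases before to 50 bases after the annotated start in RefSeq for GRCm38.p6. They are those of the neighbours Lcn8 and Lcn5 and of Lcn2, which lies apart. Capitals mark matches to the motifs named below.
Lcn8, plus strand, chr2:25652868-25653167: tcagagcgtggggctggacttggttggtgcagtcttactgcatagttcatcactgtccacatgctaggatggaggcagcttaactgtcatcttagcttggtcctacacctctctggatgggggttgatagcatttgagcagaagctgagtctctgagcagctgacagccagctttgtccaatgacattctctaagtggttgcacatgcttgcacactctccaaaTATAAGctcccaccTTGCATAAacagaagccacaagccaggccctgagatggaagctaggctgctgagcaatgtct
Lcn5, plus strand, chr2:25657702-25658001: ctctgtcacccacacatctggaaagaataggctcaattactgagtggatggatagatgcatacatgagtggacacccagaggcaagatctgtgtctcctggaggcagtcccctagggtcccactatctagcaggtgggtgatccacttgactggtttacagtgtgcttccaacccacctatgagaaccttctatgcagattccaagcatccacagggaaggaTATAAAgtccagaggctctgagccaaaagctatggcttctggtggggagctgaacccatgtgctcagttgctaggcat
Lcn2, minus strand, chr2:32387690-32387989: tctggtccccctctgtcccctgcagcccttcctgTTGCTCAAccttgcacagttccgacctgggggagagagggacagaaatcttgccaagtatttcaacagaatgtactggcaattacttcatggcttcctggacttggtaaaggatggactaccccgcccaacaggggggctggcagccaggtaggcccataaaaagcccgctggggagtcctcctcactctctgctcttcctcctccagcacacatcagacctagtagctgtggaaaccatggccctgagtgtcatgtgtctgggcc

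The windows of all 7 genes were searched for 4 short motifs, with no overlaps among the matches in these 7. The letters TATAAN, read on the gene's strand, stood 28 bases before the start of Lcn5, 26 before Lcn8 and 25 before Lcn6, against 18.2% of 27025 mouse promoter windows that hold them. The CEBP letters TTGCNNAA (both strands, 10.8% of all windows) were in Lcn2, 216 bases before the start, and in Lcn8, 12 bases before it. The forkhead letters TGTTTNC (both strands, 20.5% of all windows) were in Lcn6 alone among the 7, 18 bases before the start. The letters GGGANNNTC, which cover only part of the NF-kappaB motif (both strands, 14.4% of all windows), were in none of the 7 windows. A match is a description of letters and does not show binding. A missing match does not show that a site is absent, in the window or beyond it.

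The comparison of epididymis with SVF set the duct against adipose stroma. All 6 measured lipocalins were higher in epididymis, with mean log2 ratios from 3.42 to 6.88 and a median of 3.62, where the median of all named genes was 0.07. By the same rule 10.2% of all named genes were higher in epididymis and 8.68% were higher in SVF. Every member was at least 4-fold higher on each of the 2 arrays, Lcn5 narrowly so at 2.02 with epididymis in Cy3. The share of all named genes at 4-fold was not counted.

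Lcn9, a lipocalin described from the epididymis, had log2 ratios of epididymis over SVF of 8.95 with epididymis in Cy5 and 4.81 with epididymis in Cy3. It was the highest member on both arrays, and its mean of 6.88 ± 2.93 (118-fold) ranked 5 from the top of all named genes. The 2 arrays differed by 4.14 on the log2 scale, or 494-fold against 28-fold, and only 0.28% of genes had a larger difference between these arrays. Both arrays gave the same direction for Lcn9, with sizes far apart.

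The other 5 members lay close together. Lcn10 had 4.27 and 3.66 on the arrays with epididymis in Cy5 and in Cy3, a mean of 3.96 ± 0.42 (15.6-fold). Lcn12 had 4.18 and 3.09 on the arrays in the same order, a mean of 3.64 ± 0.77 (12.4-fold). These were the pair with the closest agreement between dyes. Lcn2, the siderophore-binding member, had 4.35 and 2.86, a mean of 3.60 ± 1.05 (12.2-fold). The retinoic acid carrier Lcn5 had 4.93 and 2.02, a mean of 3.48 ± 2.06 (11.1-fold). Its neighbour Lcn8, a secretory product of the epididymis, had 4.45 and 2.39, a mean of 3.42 ± 1.46 (10.7-fold). The 5 means spanned 0.55 on the log2 scale, less than the SD between arrays of 4 of the 5, so their order is not resolved. Lcn12 was the lowest of all members with epididymis in Cy5, and Lcn5 was the lowest with epididymis in Cy3.

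**Figure D1:**
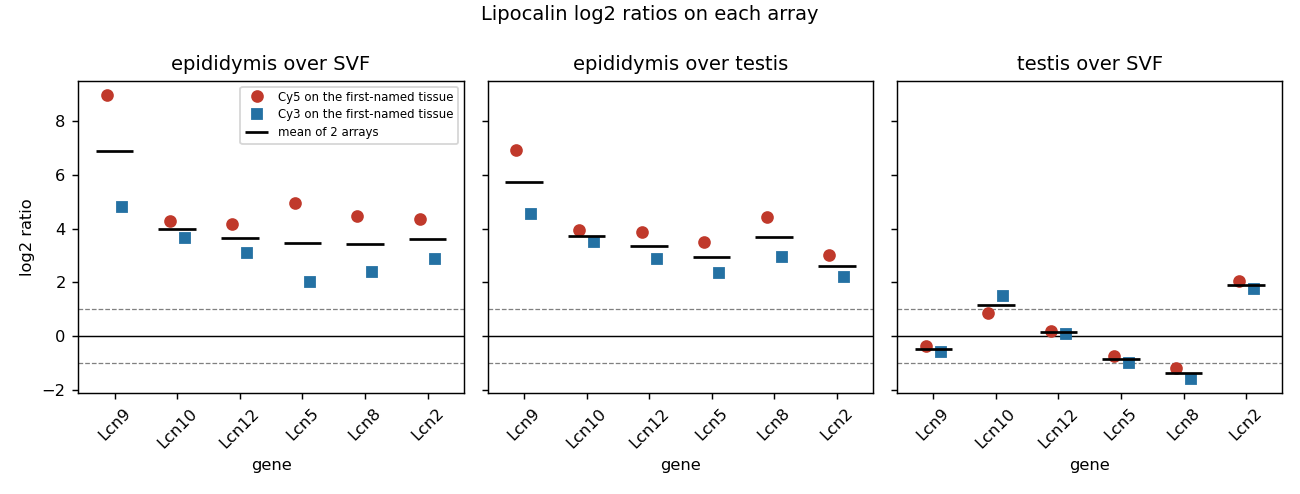
Log2 ratios of the 6 measured lipocalins on each array of the 3 dye swaps, with circles where the first-named tissue was in Cy5, squares where it was in Cy3, and a bar at the mean of both. Dashed lines mark 2-fold. All points of epididymis over SVF and of epididymis over testis lie above 2, whereas testis over SVF runs from -1.58 to 2.04.

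The comparison of epididymis with testis set the duct against the organ that supplies its sperm. Here too all 6 measured lipocalins were higher in epididymis, with a median log2 ratio of 3.53 and a range from 2.62 to 5.74. Of all named genes, 14.3% were higher in epididymis and 18% were higher in testis, with a median over all genes of -0.00346. The epididymal RNA is shared with the comparison above, so the 2 sets of ratios are not independent.

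Lcn9 again had the highest ratio on both arrays, with 6.92 with epididymis in Cy5 and 4.55 with epididymis in Cy3, a mean of 5.74 ± 1.68 (53.4-fold). It ranked 17 from the top of all named genes. Lcn10 had 3.95 and 3.51, a mean of 3.73 ± 0.31 (13.3-fold), and Lcn8 had 4.43 and 2.96, a mean of 3.69 ± 1.04 (12.9-fold). These 2 genes did not differ beyond their spread. Lcn12 followed with 3.86 and 2.88, a mean of 3.37 ± 0.69 (10.3-fold). Lcn5 had 3.51 and 2.36, a mean of 2.93 ± 0.81 (7.65-fold). Lcn2 had the smallest ratio on both arrays, 3.02 and 2.22, with a mean of 2.62 ± 0.57 (6.13-fold) and rank 628 of the named genes.

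**Figure D2:**
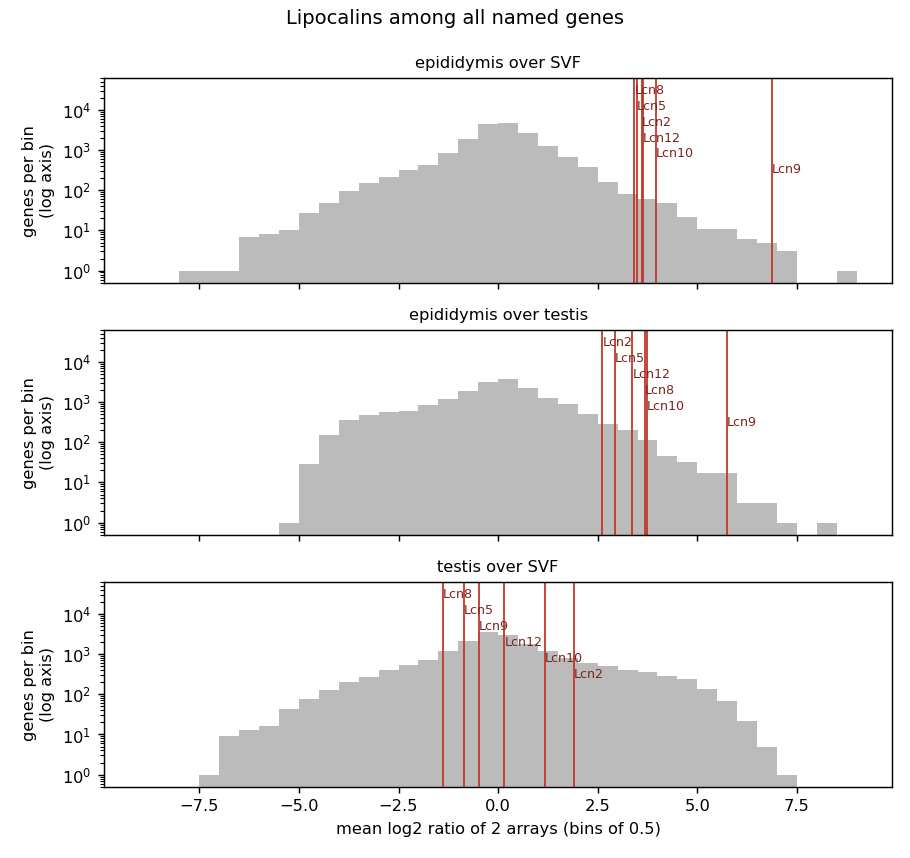
Number of named genes in bins of mean log2 ratio (log axis), for epididymis over SVF, epididymis over testis and testis over SVF, with a red line at each measured lipocalin. In both comparisons of epididymis all 6 lipocalins stand in the upper tail, from 2.62 to 6.88, and in testis over SVF they stand on both sides of 0.

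All 6 members had the larger ratio on the array with epididymis in Cy5, in both dye swaps. The gap between the arrays had a median of 1.78 over the 6 members for epididymis and SVF, against 0.14 over all named genes, and 1.06 for epididymis and testis, against 0.20. For testis and SVF, 5 of 6 members had the larger ratio with testis in Cy5, with a median gap of 0.25. Over all genes called higher in epididymis the median gap was 0.13 against SVF and 0.12 against testis, no larger than over all named genes. Among the genes with the largest epididymal ratios, many others had a gap of the same sign as the members. Among the 200 genes with the highest epididymis over SVF ratios, which include all 6 members, 137 of the other 194 had the larger ratio with epididymis in Cy5, with a median gap of 0.62. For the 10 duct markers the median gap was 1.77, and it was positive for 9 of them. Between epididymis and testis, 142 of 197 other genes among the top 200 had a positive gap, with a median of 0.41. The folds of the lipocalins therefore differed between the 2 arrays of a pair. Each dye orientation of a pair was a single array, so the dye cannot be told apart from other differences between arrays. What the dye contributed was not tested.

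Between testis and SVF the lipocalins took both directions. By the rule of 2-fold on both arrays 1 member was higher in testis, Lcn2, and 1 was higher in SVF, Lcn8. The same rule called 20.7% of all named genes higher in testis and 16% higher in SVF, so these counts of 1 in 6 are near the share of all genes and are no result about the lipocalins. Lcn2 had log2 ratios of testis over SVF of 2.04 with testis in Cy5 and 1.76 with testis in Cy3, a mean of 1.90 ± 0.19 (3.73-fold higher in testis). Lcn8 had -1.19 and -1.58, a mean of -1.38 ± 0.28 (2.60-fold higher in SVF).

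The other 4 members did not meet the rule. Lcn10 had 0.88 and 1.48 for testis over SVF, a mean of 1.18 ± 0.43, and missed the rule on the array with testis in Cy5. Lcn5 had -0.73 and -0.99, a mean of -0.86 ± 0.19. Lcn9 had -0.36 and -0.59, a mean of -0.48 ± 0.17. The lowest difference in size was that of Lcn12, with 0.21 and 0.10 and a mean of 0.16 ± 0.08. Whether any of these 4 genes was expressed in either tissue cannot be read from ratios.

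Because the 3 dye swaps close a loop, each ratio could also be formed through the third tissue from the other 4 arrays. For epididymis over SVF these indirect ratios were 5.26 for Lcn9, 4.91 for Lcn10, 4.52 for Lcn2, 3.53 for Lcn12, 2.31 for Lcn8 and 2.07 for Lcn5. For epididymis over testis they were 7.35 for Lcn9, 4.80 for Lcn8, 4.34 for Lcn5, 3.48 for Lcn12, 2.78 for Lcn10 and 1.71 for Lcn2. All 12 exceeded 2-fold in favour of epididymis, as the direct ratios did.

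For testis over SVF the indirect ratios changed the picture. The indirect ratio of Lcn9 was 1.14 and that of Lcn5 was 0.54, both of the opposite sign to the direct ratios. The indirect ratio was -0.27 for Lcn8, 0.24 for Lcn10, 0.27 for Lcn12 and 0.99, just under 2-fold, for Lcn2. Direct and indirect ratios differed by 1.62 in size for Lcn9, 1.40 for Lcn5, 1.11 for Lcn8, 0.94 for Lcn10, 0.91 for Lcn2 and 0.11 for Lcn12. Only 2.18% of named genes closed the loop less well than Lcn9, and 71.6% closed it less well than Lcn12. The order of testis and SVF is hence not settled for Lcn5 and Lcn9, and neither 2-fold call between these tissues, Lcn2 or Lcn8, was met by the indirect ratio.

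**Figure D3:**
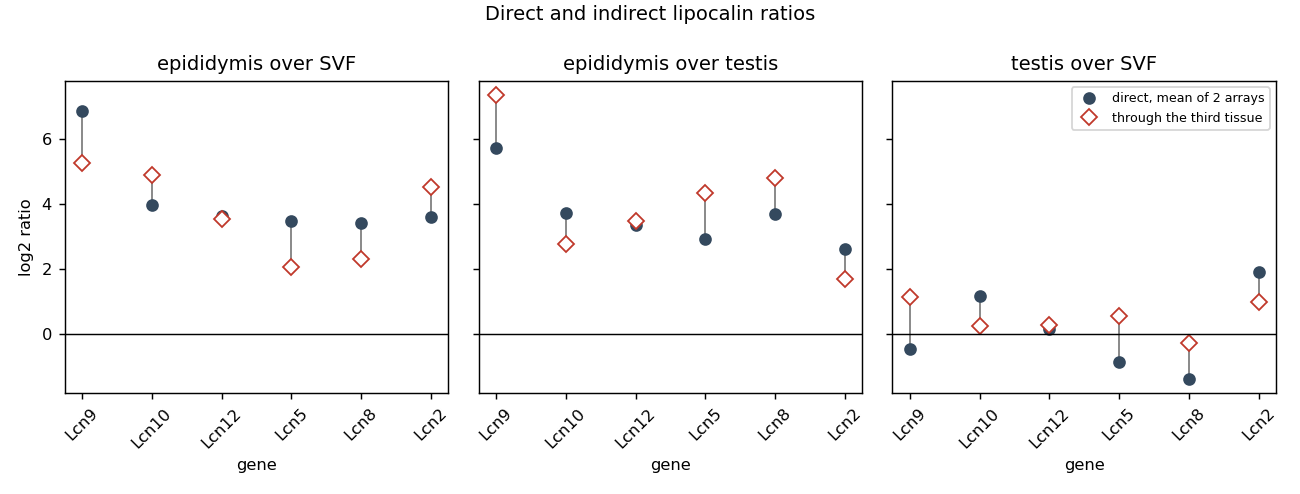
Direct log2 ratio (filled, mean of 2 arrays) and the ratio through the third tissue (open diamonds) of each measured lipocalin, for the 3 pairs of tissues. Both stand well above 0 for epididymis, and for testis over SVF the 2 estimates of Lcn9 (-0.48 and 1.14) and of Lcn5 (-0.86 and 0.54) fall on opposite sides of 0.

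A least-squares fit over all 6 arrays placed epididymis above both other tissues for all 6 members. Relative to SVF at 0, Lcn9 stood at 6.34 in epididymis and 0.06 in testis, with a residual SD of 1.81. Lcn10 stood at 4.28 in epididymis and 0.87 in testis (residual SD 0.51), and Lcn2 at 3.91 and 1.59 (residual SD 0.71). Lcn12 stood at 3.60 in epididymis and 0.19 in testis, with a residual SD of 0.52. Lcn8 and Lcn5 stood at 3.05 and 3.01 in epididymis and at -1.01 and -0.39 in testis, with residual SDs of 1.01 and 1.25. Testis and SVF lay within 1 residual SD of each other for Lcn5, Lcn9 and Lcn12, and only just so for Lcn8. The residual SD is the scatter of single arrays about the fit, and not the error of a fitted difference.

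Genes of NF-kappaB and cytokine signals were read beside Lcn2, inhibitors such as Nfkbia and Tnfaip3 among them. Counts in this and the later lists stand beside the shares of all named genes. These were 10.2% higher in epididymis and 8.68% higher in SVF. For epididymis and testis they were 14.3% and 18%, and for testis and SVF 20.7% and 16%, in the order named. Of 15 measured NF-kappaB and cytokine genes, 14 were higher in SVF than in epididymis (median log2 ratio of epididymis over SVF -3.72) and 13 were higher in SVF than in testis (median of testis over SVF -3.94). None was higher in epididymis or in testis than in SVF. Between epididymis and testis, 2 were higher in epididymis and 1 was higher in testis. Nfkbiz, a nuclear cofactor of NF-kappaB needed for Lcn2 induction, stood at -5.53 ± 0.01 for epididymis over SVF and -6.66 ± 0.09 for testis over SVF. The cytokines Il6, Tnf and Il1b stood at -7.75 ± 0.93, -7.06 ± 0.30 and -6.14 ± 0.04 for epididymis over SVF. Lcn2 itself was 12.2-fold higher in epididymis and 3.73-fold higher in testis than in SVF by the direct ratios. Formed through epididymis, its testis over SVF log2 ratio was 0.99, just under 2-fold. The part of these signals in the Lcn2 ratios was not tested.

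Neutrophils are a known source of Lcn2. Of 12 measured neutrophil markers, 5 were higher in SVF than in epididymis and none was higher in epididymis, the list median being -1.04 for epididymis over SVF. Against testis 4 of 12 were higher in SVF, with a median of testis over SVF of -0.98. The calprotectin subunits S100a9 and S100a8 stood at -4.64 ± 0.85 and -2.81 ± 0.97 for epididymis over SVF, the resistin-like gene Retnlg at -4.15 ± 0.91 and the gelatinase Mmp9 at -2.41 ± 0.21. Between epididymis and testis, S100a8 (2.17 ± 0.72) and Mmp9 (2.49 ± 0.40) were higher in epididymis and Csf3r, a growth factor receptor named after its values were seen, was higher in testis (-1.83 ± 0.49). The 7 epithelial markers had a median of 3.81 for epididymis over SVF. For testis over SVF their median was -0.92, with 2 higher in testis and 2 higher in SVF. Which cells gave the Lcn2 ratios was not tested and cannot be read from bulk RNA.

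Of 17 measured genes of iron handling and the acute phase, 1 was higher in epididymis than in SVF and 7 were higher in SVF. S100a8 and S100a9 belong to this list too and were already counted among the neutrophil markers. The list median was -1.19 for epididymis over SVF. The 1 was lactoferrin, Ltf, an iron-binding protein of secretions, at 2.67 ± 0.78, named here after its value was seen. The iron carrier transferrin, Trf, stood at -3.47 ± 0.69 and the heme-degrading enzyme Hmox1 at -3.86 ± 0.77. Against testis, 8 of the 17 were higher in epididymis and 1 was higher in testis, and for testis over SVF 12 were higher in SVF and none in testis (median -2.80). Among genes for uptake of Lcn2 or for its mammalian siderophore, the endocytic receptor Lrp2 was higher in epididymis than in SVF (1.72 ± 0.37) and stood at 0.84 ± 0.09 over testis. The receptor Slc22a17 met the rule in no comparison, nor did the melanocortin receptor Mc4r, which is reported to respond to Lcn2. Their epididymis over SVF ratios were -0.14 ± 0.05 and 0.34 ± 0.34. Bdh2, an enzyme linked to siderophore synthesis, was higher in SVF than in epididymis (-2.02 ± 0.01) and than in testis (-2.57 ± 0.03).

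**Figure D4:**
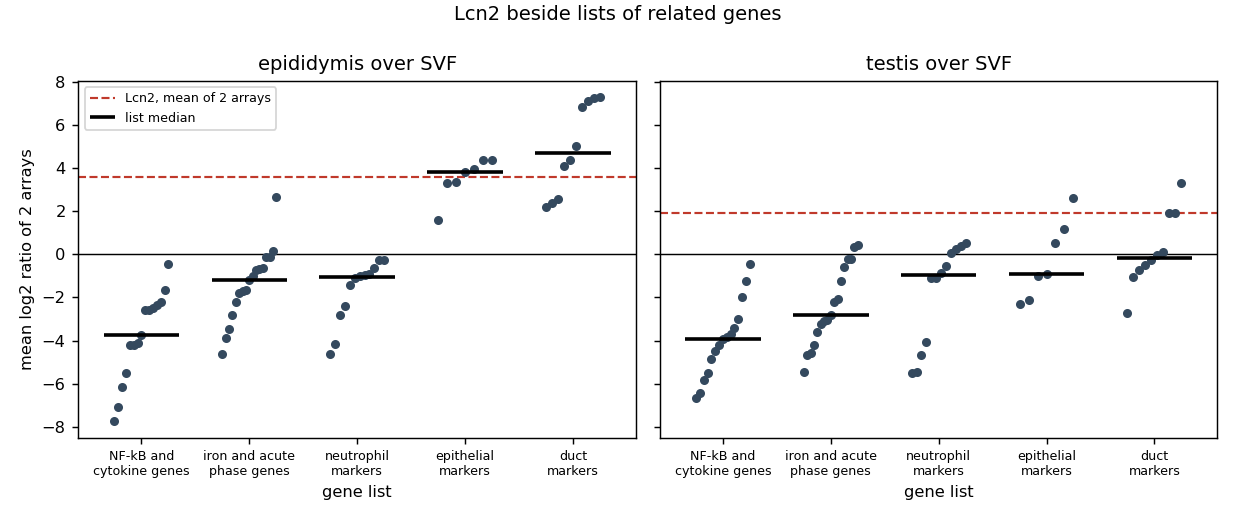
Mean log2 ratios of 5 gene lists (points, with a bar at each list's median) beside Lcn2 (dashed line), for epididymis over SVF and testis over SVF. Lcn2 lies at 3.60 and 1.90, beside list medians of -3.72 and -3.94 for NF-kappaB and cytokine genes.

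Retinoid genes were read because Lcn5 binds retinoic acid. Of 19 measured, 1 was higher in epididymis than in SVF and 4 were higher in SVF, with a median of -0.18. The 1 was Aldh1a1, a retinaldehyde dehydrogenase that makes retinoic acid, at 2.40 ± 0.62 over SVF and 2.17 ± 0.61 over testis, and it was named after its values were seen. Its relative Aldh1a3 stood at -3.84 ± 0.14 for epididymis over SVF and the retinol-binding protein Rbp7 at -3.82 ± 0.01. Lrat, which esterifies retinol, was higher in testis than in epididymis (log2 ratio of epididymis over testis -2.43 ± 0.06). Of the 19, 2 were higher in epididymis than in testis, Aldh1a1 and the short-chain reductase Dhrs3 (1.79 ± 0.76), and 4 were higher in testis. Between testis and SVF, 3 were higher in each tissue, beside 20.7% of all named genes higher in testis and 16% higher in SVF.

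Among 11 measured genes that regulate the duct, 3 were higher in epididymis than in SVF and 1 was higher in SVF. The receptor tyrosine kinase Ros1, needed for the initial segment of the duct, stood at 3.39 ± 0.32 over SVF and 3.16 ± 0.25 over testis. The ETS factors Etv4 and Etv5 stood at 1.51 ± 0.34 and 1.49 ± 0.42 over SVF, and at 1.60 ± 0.04 and 1.47 ± 0.40 over testis. Cebpb, already counted among the NF-kappaB and cytokine genes, was higher in SVF than in epididymis (-2.22 ± 0.23) and higher in epididymis than in testis (3.56 ± 0.76). Over testis, 4 of the 11 were higher in epididymis and none in testis, and between testis and SVF the 1 gene called was Cebpb, higher in SVF (-4.85 ± 0.20).

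The wider lipocalin family did not move as a block. Of 24 other lipocalin genes on the list, 12 were measured, and 4 of the 12 were higher in epididymis than in SVF, with a list median of 0.02. These 4 were Obp2a, an odorant-binding relative, with 4.82 and 3.74 on the 2 arrays (4.28 ± 0.77), the prostaglandin D synthase Ptgds (3.50 ± 0.18), the major urinary protein Mup5 (2.92 ± 0.75) and the complement subunit C8g (2.45 ± 0.39). Mup5 belongs to a family of near-identical copies, so its feature may read several genes. No gene of the list was higher in SVF than in epididymis. Against testis, Obp2a (3.72 ± 0.84), Apod (3.91 ± 0.15), Ptgds (1.99 ± 0.15) and Mup5 (1.87 ± 0.33) were higher in epididymis, and C8g (-2.11 ± 0.33) and Ambp (-2.00 ± 0.32) were higher in testis.

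Apod, an apolipoprotein of the family, was 4.13 ± 0.20 lower on the log2 scale in testis than in SVF and stood at 0.20 ± 0.29 for epididymis over SVF. C8g (4.38 ± 0.79), Ptgds (2.75 ± 0.31) and Mup5 (1.57 ± 0.32) were higher in testis than in SVF, beside Lcn2. The vomeronasal lipocalins Lcn3 and Lcn4 stood at -0.16 ± 0.25 and -0.33 ± 0.83 for epididymis over SVF and met the rule in no comparison. The same holds for the retinol carrier Rbp4 (-0.62 ± 0.09), Apom (-1.26 ± 0.68), the acute phase gene Orm1 (-0.43 ± 0.44) and Obp1a (0.33 ± 1.36), whose values are for epididymis over SVF. Ambp stood at -0.80 ± 0.67 there.

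Along the stretch of chromosome 2, 20 genes were measured, 9 of them lipocalins. Of these 9, epididymis exceeded SVF by the rule for 8, the 9 having a median of 3.50, and Lcn3 was the exception. The 9 are the members Lcn12, Lcn8, Lcn5, Lcn10 and Lcn9, with Ptgds, C8g, Obp2a and Lcn3 of the wider family. All were already counted above. Over all named genes the rule called 10.2% higher in epididymis and 8.68% higher in SVF. Of the 11 other genes in the stretch, 3 were higher in epididymis and 1 was higher in SVF, with a median of 0.69. The 3 were Ccdc183 (2.15 ± 0.53), Phpt1 (1.61 ± 0.42) and Tmem141 (1.39 ± 0.30), and the 1 was the ficolin gene Fcna (-2.87 ± 0.51). Other genes nested among the lipocalins, such as Traf2 (-0.67 ± 1.05), Ajm1 (-0.10 ± 0.30), Rabl6 (0.68 ± 0.04), Edf1 (0.81 ± 0.27), Fbxw5 (0.55 ± 0.08), Bmyc (0.69 ± 1.89) and Glt6d1 (1.04 ± 0.44), did not meet the rule. For epididymis over testis the counts were 7 of 9 lipocalins higher in epididymis and 1 higher in testis, and 2 and 3 of the 11 other genes. The shares of all named genes were 14.3% and 18%. For testis over SVF, 2 of the 9 lipocalins were higher in testis and 1 was higher in SVF, against 5 and 1 of the 11 other genes. Here the shares of all named genes were 20.7% and 16%. The difference between lipocalins and their neighbours was not tested.

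**Figure D5:**
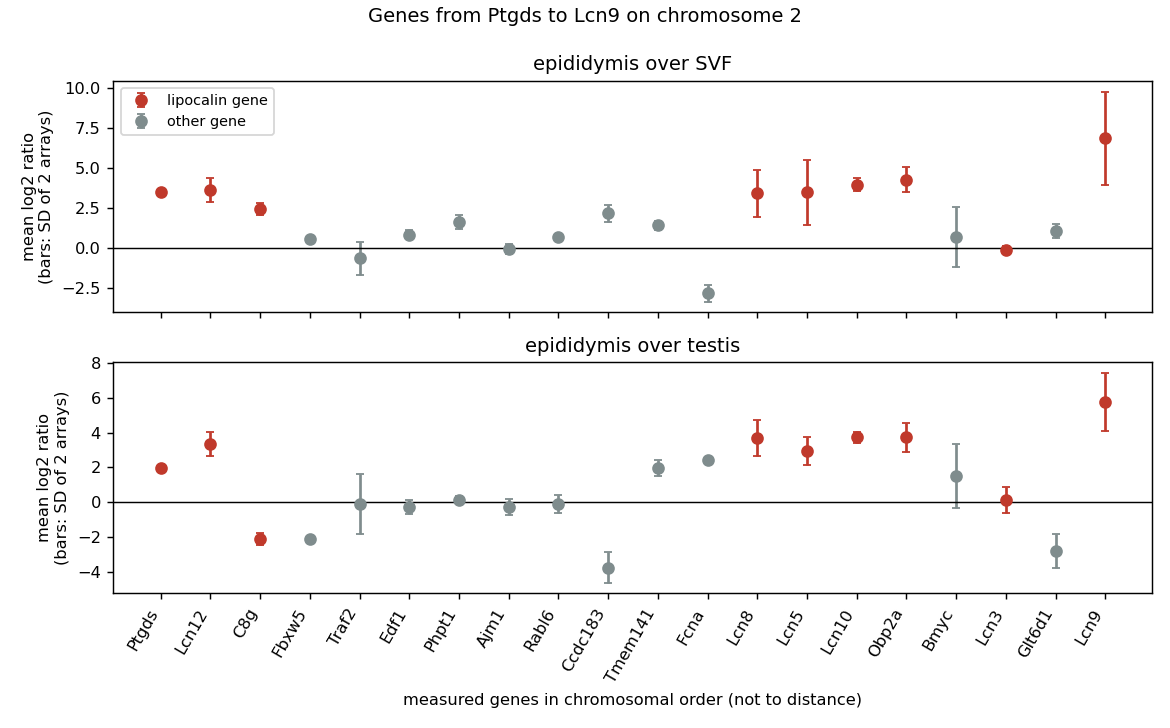
Mean log2 ratio with SD of 2 arrays for the 20 measured genes from Ptgds to Lcn9 in their order on chromosome 2, lipocalins in red and other genes in grey. Lcn12, Lcn8, Lcn5, Lcn10, Obp2a and Lcn9 stand high in both comparisons, Lcn3 stands near 0, and C8g is high over SVF (2.45) and low over testis (-2.11).

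For each member the named genes with the most similar ratios were found by Euclidean distance over the 6 arrays, on the log2 scale. Lcn12 had the closest partners, Eddm3b at 0.62 and Emid1 at 0.69. Lcn2 was nearest to 9230110K08Rik (0.75) and the amino acid carrier Slc7a5 (0.99), and Lcn10 to the beta-defensin Defb34 (0.84) and Bcl2l15 (0.91). Lcn8 was nearest to Tmem30b (1.02) and Fut4 (1.35), and Lcn5 to the basal cell keratin Krt5 (1.12) and again Tmem30b (1.23). Lcn9 had no close partner, with Odam at 2.70 and Ptpn5 at 2.80. Within the family, Lcn5 and Lcn8 were each other's nearest member at 1.45, and Lcn10 and Lcn12 at 1.76.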

How the data were processed

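The data are 6 two-colour arrays with 25344 features each. The authors deposited 1 log ratio per feature and array, read here as log2, with values from -8.41 to 10.25 and column medians from 0.01 to 0.11. The sources used here do not give the base of the logarithm, the direction, the background correction or the normalization. The 2 arrays of a pair correlated at -0.86 (testis and SVF), -0.64 (epididymis and SVF) and -0.77 (epididymis and testis) as deposited, so the sign was changed on the array with the first-named tissue in Cy3. No normalization was added.

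Features were named from the platform annotation, which can be old, through gene IDs of GRCm38.p6 (20456 features), by symbol (220) or as annotated (248). A gene's value is the mean over its features, for 18545 genes. The number of arrays limits the precision. Named genes are all members, 2 nearest genes by distance for each, up to 4 genes of each list with the largest ratio, all measured genes of the 2 short lipocalin lists and the genes of the chromosome 2 stretch. Aldh1a1, Ltf, Csf3r and Sycp3 lie outside this rule and were named after their values were seen. Members, lists and rules were chosen with earlier results of these data known. Alternatives were median centring, loop and indirect estimates, other thresholds, single features, natural logarithms and each array left out. Simulated data with known ratios were used to check the rule on size. One item of the regulator list and a result tied to it are not reported here. Python 3.11.15 and pandas 2.3.3 were used.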

Additional observations from a re-analysis of the deposited data

Results flagged for a closer look

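On every array, Lcn5, Lcn8 and Lcn9 were higher in epididymis than in SVF and lower in testis than in SVF. For Lcn5 the means were 3.48 for epididymis over SVF and -0.86 for testis over SVF. Lcn8 stood at 3.42 for epididymis and -1.38 for testis, and Lcn9 at 6.88 for epididymis and -0.48 for testis. Both comparisons share the SVF RNA, and the difference between them was not tested. The testis over SVF ratios of Lcn5 and Lcn9 did not reach 2-fold on both arrays. They turned to 0.54 for Lcn5 and 1.14 for Lcn9 when formed through epididymis from the other 4 arrays, and to 0.06 for Lcn9 in the loop fit, so the order of testis and SVF is not settled for these genes. The direct comparison of epididymis with testis gave 2.93, 3.69 and 5.74 for Lcn5, Lcn8 and Lcn9.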

How the results depend on the processing

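All 6 members remained higher in epididymis than in SVF, and higher than in testis, under the alternatives that could have removed a call, which were median centring, the loop fit, the indirect estimate and 4-fold on both arrays. The others run could not have removed one: 2-fold on the mean, natural logarithms, each array left out, and the feature with the largest or smallest ratio, since each member has 1 feature. The share of all named genes that pass 4-fold on both arrays was not counted. For testis over SVF the main counts were 1 higher in testis (Lcn2) and 1 higher in SVF (Lcn8). The count higher in testis was 2 with 2-fold on the mean alone and with natural logarithms (Lcn2 and Lcn10), 0 with 4-fold on both arrays, and from 1 to 2 with an array left out. The 2 came from leaving out the array with testis in Cy5. In the indirect estimate the count stayed at 1, but the gene was Lcn9. The count higher in SVF was 0 in the indirect estimate and with 4-fold on both arrays, and 2 with natural logarithms (Lcn5 and Lcn8). Of 18 member ratios, 5 moved by more than the SD between arrays in the loop fit, 11 in the indirect estimate and 0 with median centring. No ratio that met the rule in the main setting changed sign, but Lcn9 for testis over SVF, which did not meet it (-0.48), was 0.06 in the loop fit and 1.14 in the indirect estimate, and Lcn5 (-0.86) was 0.54 in the indirect estimate. The cause of these shifts was not tested, other than that natural logarithms enlarge all ratios and a stricter threshold removes calls. No paired analysis was possible because the labels give no replicate numbers and each tissue has 1 RNA sample. Signal over background is not known, which limits every fold given.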
